A study of Arabidopsis thaliana with 24 samples.

Results

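The genes described here are 10 members of the XTH family of Arabidopsis thaliana, XTH4, XTH5, XTH8, XTH9, XTH15, XTH16, XTH17, XTH21, XTH22 (also named TCH4) and XTH24. They were chosen by gene identifier and are 10 of 33 XTH genes and of 32833 genes in the deposited table. XTH genes encode xyloglucan endotransglucosylases and hydrolases, secreted wall enzymes. Xyloglucan is a hemicellulose that coats and links the cellulose fibres of the growing plant cell wall. An XTH enzyme cuts a xyloglucan chain and joins the free end to another chain, or in some members to water, so that the wall can be rearranged while a cell expands. Several members are known as genes that respond to growth hormones, shade, touch or temperature.

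RNA was sequenced from whole seedlings of 3 genotypes on MS medium, with or without cold. The mutant lines uap1-1 and uap1-2 are homozygous T-DNA insertion mutants of UAP1, which the study's title calls a splicing factor, and both are in the Col-0 background of the wild type (WT). The cold groups (uap1-1 cold, uap1-2 cold and WT cold) were kept at 4 °C for 24 h before harvest, and the control groups (uap1-1 control, uap1-2 control and WT control) were not. Each of the 6 groups had 4 libraries, described by the submitters as independent biological replicates. The submitters give the age at harvest as 12 days in the study's design, with cold starting after 11 days, and as 10-day-old seedlings in the extraction protocol. No gene of the table carries the name UAP1, so the mutant labels were not checked against the mutated gene.

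Library totals ranged between 19289385 and 25501547 counts, and all 10 genes passed the filter on low counts. Levels are given as FPKM, which is counts scaled to exon length and library size, here after TMM scaling of the library sizes. All adjusted p-values come from the quasi-likelihood test of edgeR, with Benjamini-Hochberg adjustment over the 21428 genes tested. A gene is said to have risen or fallen where this p was under 0.05. All 36 pairs of libraries within a group differed by more than sampling noise. Of the control libraries, 4 stood apart. WT control 1 and 2, uap1-1 control 2 and uap1-2 control 3 had TMM factors of 0.866 to 0.994, against 1.13 to 1.24 in the 8 other control libraries, and the 12 cold libraries had 0.808 to 0.989. On the second principal component of all genes, which held 10.7% of the variance, these 4 libraries lay at 34.9 to 60.9, against −48.5 to −3.27 in the 8 other controls, while the cold libraries spread between −55.0 and 71.5. Cold responses of the 10 genes are therefore also given without these 4 control libraries where that changes a call or a direction.

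The leaf marker genes (5 of 5 detected) summed to 19200 to 26400 CPM in uap1-1 cold and 20200 to 25400 CPM in uap1-1 control, 14600 to 19400 CPM in uap1-2 cold and 22300 to 26000 CPM in uap1-2 control, and 15700 to 22500 CPM in WT cold and 21700 to 33700 CPM in WT control. The 6 root marker genes, all detected, summed to 49.6 to 58.6 CPM in uap1-1 cold and 50.9 to 64.2 CPM in uap1-1 control, 49.1 to 64.5 CPM in uap1-2 cold and 38.9 to 47.1 CPM in uap1-2 control, and 53.5 to 69.9 CPM in WT cold and 36.9 to 81.1 CPM in WT control. In uap1-2 the cold and control libraries did not overlap for either list, with leaf markers lower and root markers higher in the cold, while in uap1-1 and WT both lists overlapped. The 4 seed marker genes summed to 1.45 to 17.6 CPM in cold libraries and 0.0 to 0.941 CPM in control libraries. The seed storage gene SESA1 was at 0 in WT cold, WT control and uap1-2 control, and OLEO1 was at 0 in uap1-2 control. From these low levels OLEO1 (log2 fold changes of 4.74, 7.68 and 4.68) and EM6 (3.32, 2.50 and 3.54) rose in uap1-1, uap1-2 and WT. CRA1 passed in uap1-2 (6.12), and its values in uap1-1 (1.63) and WT (0.41) did not pass. In uap1-2 cold the seed marker genes summed to 1.45 to 17.6 CPM with a median of 1.83 CPM, so the highest library lay far above the others. The part of that library in the uap1-2 values of CRA1 and OLEO1 was not tested. The 5 floral marker genes, all detected, summed to 2.88 to 14.5 CPM in cold libraries and 4.23 to 20.8 CPM in control libraries. The part of these shifts in the XTH results was not tested. In whole seedlings, fewer cells of a type and less RNA per cell cannot be told apart.

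The genes lie on all 5 chromosomes and differ widely in sequence. In TAIR10 coordinates, XTH4 (AT2G06850) is at chr2:2763449-2765743 on the plus strand, XTH5 (AT5G13870) at chr5:4474922-4477090 on the minus strand, XTH15 (AT4G14130) at chr4:8137020-8138392 on the minus strand and XTH16 (AT3G23730) at chr3:8550037-8551403 on the plus strand. XTH9 (AT4G03210) is at chr4:1415617-1417444 on the plus strand, XTH8 (AT1G11545) at chr1:3878495-3880391 on the minus strand and XTH17 (AT1G65310) at chr1:24257054-24258506 on the plus strand. XTH21 (AT2G18800) is at chr2:8144881-8146477 on the plus strand, XTH22 (AT5G57560) at chr5:23307006-23308680 on the minus strand and XTH24 (AT4G30270) at chr4:14819192-14820595 on the minus strand. Their gene models hold 2 to 5 exons and coding lengths of 810 to 918 bases. Over the 45 pairs, the coding bases were 58.6% to 81.7% identical, with a median of 64.1%. XTH15 and XTH16 were the closest pair among the 10, at 81.7%, and XTH4 and XTH5 were each other's closest relatives in the family at 72.5%.

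The stretch of the coding sequence that encodes the catalytic site differs in its bases between the members. It is 27 bases long, lies within 1 exon in each gene, and was read from the RefSeq TAIR10.1 genome on the coding strand. Capitals mark bases that differ from XTH4.
XTH4: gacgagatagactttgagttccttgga
XTH5: gaTgagatagactttgagttTctAggG
XTH15: gacgagatagactttgagttTctAggT
XTH16: gacgagatagactttgagttTcttggT
XTH9: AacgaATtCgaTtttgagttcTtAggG
XTH8: gacgagatagaTttCgaAttTctAggG
XTH17: gaTgagatCgaTttCgagttcTtGgga
XTH21: gacgagatagaTttCgagttTTtGggG
XTH22: gacgagatagaTttCgagttTTtAggG
XTH24: gaTgagatTgaTtttgagttcTtGggT
XTH16 differed from XTH4 at 2 of these bases, XTH15 at 3 and XTH5 at 4, whereas XTH8, XTH17, XTH21, XTH22 and XTH24 differed at 6 and XTH9 at 8. Only in XTH9 do the differences change the encoded amino acids. In all the other genes the stretch encodes the same amino acids as in XTH4.

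The 300 bases before the annotated gene start are shown for 3 genes on the strand of the gene, from the same genome: XTH15 (chr4:8138393-8138692, minus strand) and XTH16 (chr3:8549737-8550036, plus strand), close relatives that both fell in the cold, and XTH17 (chr1:24256754-24257053, plus strand), which rose in the cold in both mutants. Capitals mark matches to the motifs searched.
XTH15: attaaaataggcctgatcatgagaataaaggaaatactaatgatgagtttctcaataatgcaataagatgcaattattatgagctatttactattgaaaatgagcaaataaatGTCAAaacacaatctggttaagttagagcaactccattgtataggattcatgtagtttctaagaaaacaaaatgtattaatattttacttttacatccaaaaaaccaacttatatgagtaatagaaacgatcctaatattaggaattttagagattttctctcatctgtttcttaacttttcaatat
XTH16: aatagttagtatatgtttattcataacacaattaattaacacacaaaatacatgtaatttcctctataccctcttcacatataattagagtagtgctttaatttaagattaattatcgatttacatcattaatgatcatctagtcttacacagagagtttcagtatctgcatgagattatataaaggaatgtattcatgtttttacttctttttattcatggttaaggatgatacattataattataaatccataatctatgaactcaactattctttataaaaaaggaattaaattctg
XTH17: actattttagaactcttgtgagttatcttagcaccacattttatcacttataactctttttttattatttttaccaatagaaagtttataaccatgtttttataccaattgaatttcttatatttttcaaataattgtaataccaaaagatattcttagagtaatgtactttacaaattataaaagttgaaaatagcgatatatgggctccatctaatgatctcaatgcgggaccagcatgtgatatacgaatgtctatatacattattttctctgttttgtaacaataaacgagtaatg
The capitals are a W-box (TTGAC) on the other strand in XTH15. The windows of 9 genes, XTH24 left out, were searched on both strands, and no motif contains another, though neighbouring matches may share end bases. The core of the C-repeat element (CCGAC), the motif bound by the CBF cold regulators, was in XTH8, 1 of the 9 genes, and in 13.9% of 27443 promoters of the same length. The W-box was in 5 of the 9 genes (XTH5, XTH8, XTH9, XTH15 and XTH22) and in 50.4% of all promoters. The evening element (AAAATATCT) was in XTH9, against 2.78% of all promoters, and the E-box variant (CGTGTG) was in XTH8, against 6.11%. The G-box (CACGTG, 7.09% of all promoters), the brassinosteroid response element (CGTGCG, 1.78%) and the CAMTA box (CGCGT, 7.89%) were in none of the 9 windows. A match is a description of letters, not a binding site.

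Across the 10 genes the cold response was mixed in direction. XTH5, XTH15, XTH16 and XTH21 fell in the cold in uap1-1, uap1-2 and WT. XTH17 rose in both mutants, XTH4 rose in uap1-1, and no gene of the 10 rose in WT. XTH8, XTH9, XTH22 and XTH24 passed the test in no genotype. In uap1-1, 2 of the 10 rose and 4 fell, against 26.7% of all genes tested higher and 29.2% lower. In uap1-2, 1 rose and 4 fell, against 26.5% higher and 26.0% lower. In WT, 0 rose and 4 fell, against 25.8% higher and 28.4% lower, and 1 gene of the 10, XTH17, had an unadjusted p under 0.05 for a rise. The median log2 fold change of the 10 genes was −0.17 in uap1-1, −0.34 in uap1-2 and −0.10 in WT, beside medians of −0.07, −0.01 and −0.06 over all genes tested in the same genotypes. With 10 genes, neither share is read as a result about the family. Without the 4 control libraries that stood apart, an alternative chosen after seeing the data, 4 rose and 4 fell in uap1-1 (27.8% and 29.8% of 21755 genes), 4 rose and 4 fell in uap1-2 (26.5% and 26.8%), and 3 rose and 3 fell in WT (23.9% and 25.7%). The libraries left out were WT control 1 and 2, uap1-1 control 2 and uap1-2 control 3, so WT kept the fewest control libraries. In that refit XTH4, XTH17 and XTH22 passed as higher in all 3 genotypes and XTH24 in both mutants. XTH5, XTH15 and XTH16 passed as lower in all 3, XTH21 in uap1-1 and XTH9 in uap1-2. The libraries left out were picked by a TMM factor under 1, while all cold libraries, at 0.808 to 0.989, stayed. Within groups, XTH4, XTH17, XTH22 and XTH24 varied against that factor (r of −0.74, −0.46, −0.64 and −0.68). The libraries were thus picked by a factor that the levels of these genes follow, so the added calls are not separate evidence of a rise. Not every added call came with a larger value: XTH4 in uap1-2 went from 0.72 to 0.67 on the log2 scale. The part of this choice of libraries in the added calls was not tested.

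**Figure D1:**
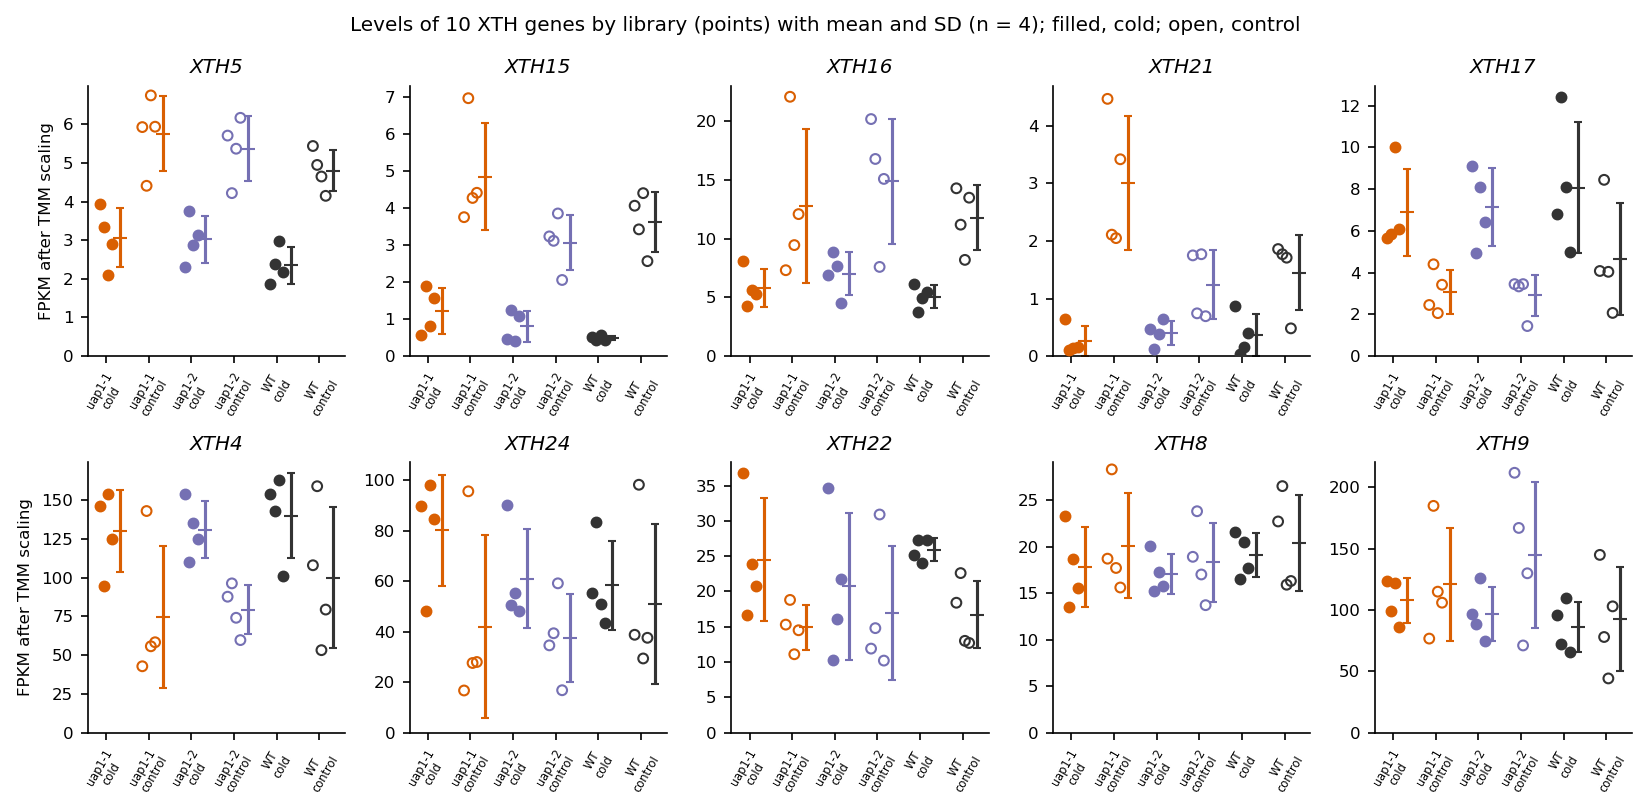
Level of each XTH gene in every library, in FPKM after TMM scaling on a linear axis from 0, with cold groups (filled) left of their control groups (open) and the mean and SD of 4 libraries beside the points. XTH5 and XTH15 are lower in every cold library than in any control library of the same genotype, while XTH4 and XTH24 each have a control library near the level of the cold groups, at 143 and 95.7 FPKM in uap1-1 control.

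**Figure D2:**
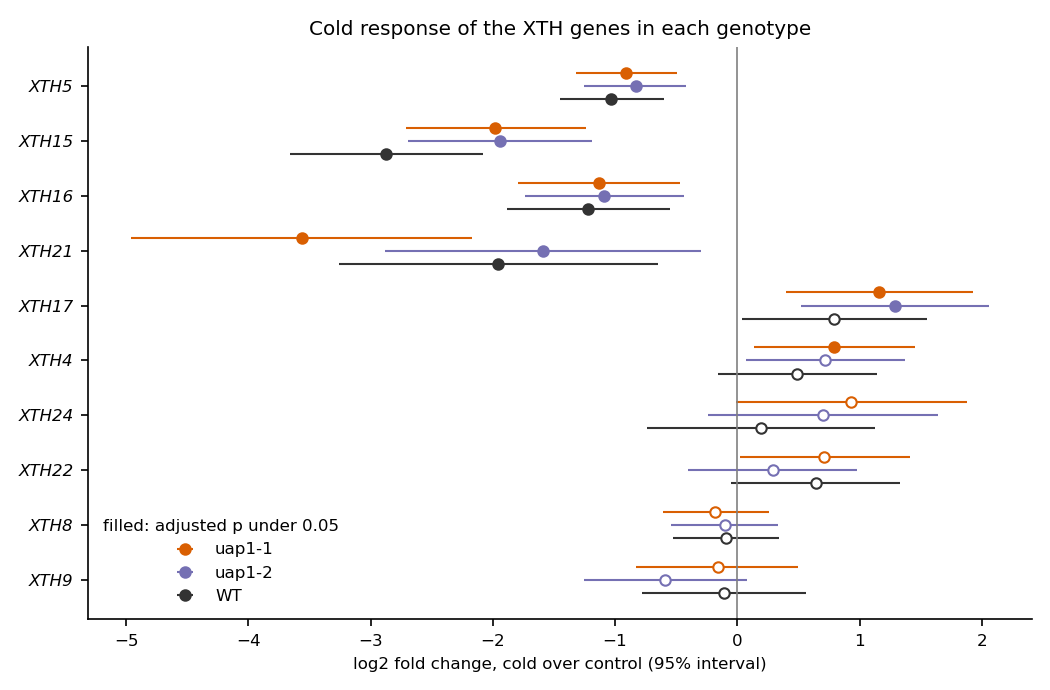
Log2 fold change of cold over control with its 95% interval for each XTH gene in uap1-1, uap1-2 and WT; filled points passed an adjusted p of 0.05. XTH5, XTH15, XTH16 and XTH21 lie left of 0 in every genotype, and XTH17 lies right of 0, with a value of 0.79 in WT that did not pass.

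XTH15, known as a gene induced by shade in elongating petioles, and XTH16, its closest relative, both fell. XTH15 had 0.584, 1.89, 0.815 and 1.58 FPKM in uap1-1 cold, against 3.76, 6.98, 4.28 and 4.42 FPKM in uap1-1 control. It had 0.465, 1.26, 0.412 and 1.08 FPKM in uap1-2 cold, against 3.24, 3.12, 3.86 and 2.06 FPKM in uap1-2 control. Its WT cold libraries had 0.508, 0.436, 0.570 and 0.449 FPKM, against 4.07, 3.43, 4.41 and 2.57 FPKM in WT control. All cold libraries were below all control libraries, and the WT cold libraries were the most alike. The cold values rest on few counts, 11 to 55 in uap1-1, 11 to 29 in uap1-2 and 10 to 14 in WT. The control libraries had 107 to 177, 57 to 112 and 70 to 125 counts in the same genotypes. XTH15 fell by 1.98 on the log2 scale in uap1-1 (SE 0.35, edgeR adjusted p = 6.09e-05), by 1.94 in uap1-2 (SE 0.36, edgeR adjusted p = 0.000108) and by 2.87 in WT (SE 0.38, edgeR adjusted p = 1.38e-06). XTH15 shares 382 bases of its locus with AT4G14120, a gene on the opposite strand, and no source used here gives the strand setting of the counts, so reads in the overlap cannot be assigned with certainty. AT4G14120 itself had 0.794 to 1.82 FPKM in uap1-2 cold and 1.68 to 2.29 FPKM in uap1-2 control, and its cold log2 fold change was −0.67 in uap1-1, −0.55 in uap1-2 and −0.55 in WT, with edgeR adjusted p of 0.0303, 0.0707 and 0.0784.

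XTH16 had 8.11, 4.29, 5.62 and 5.26 FPKM in uap1-1 cold, against 7.32, 22.1, 9.46 and 12.1 FPKM in uap1-1 control. Its uap1-2 cold libraries had 6.92, 8.88, 7.69 and 4.55 FPKM, against 20.2, 16.8, 7.60 and 15.1 FPKM in uap1-2 control. WT cold libraries held 6.13, 3.74, 4.93 and 5.48 FPKM of it, against 14.3, 11.2, 8.20 and 13.5 FPKM in WT control. The WT groups did not overlap, and the groups of each mutant overlapped at 1 control library. XTH16 fell by 1.13 on the log2 scale in uap1-1 (SE 0.32, edgeR adjusted p = 0.00445), by 1.09 in uap1-2 (SE 0.32, edgeR adjusted p = 0.00585) and by 1.22 in WT (SE 0.32, edgeR adjusted p = 0.00264). XTH15 and XTH16 did not vary together inside groups: with group means subtracted, their r over the 24 libraries was −0.14, while XTH16 had r = 0.81 with XTH9, a gene known from shoot apices. These r are descriptions over libraries that share depth and scaling.

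XTH4 and XTH5 are a pair of related endotransglucosylase genes. XTH5 fell in every genotype, whereas XTH4 had values above 0 that passed only in uap1-1. XTH5 had 3.93, 3.34, 2.11 and 2.91 FPKM in uap1-1 cold, against 5.93, 4.41, 6.75 and 5.94 FPKM in uap1-1 control. uap1-2 cold libraries held 2.31, 3.76, 2.87 and 3.13 FPKM of it, against 5.71, 4.22, 5.37 and 6.17 FPKM in uap1-2 control. In WT cold it had 1.87, 2.39, 2.99 and 2.17 FPKM, against 5.44, 4.95, 4.65 and 4.15 FPKM in WT control. No cold library reached the lowest control library of its genotype. XTH5 fell by 0.91 on the log2 scale in uap1-1 (SE 0.20, edgeR adjusted p = 0.000585), by 0.83 in uap1-2 (SE 0.20, edgeR adjusted p = 0.00136) and by 1.03 in WT (SE 0.20, edgeR adjusted p = 0.000183).

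XTH4, the most abundant of the 10 genes in the cold, had 146, 94.8, 154 and 125 FPKM in uap1-1 cold, against 42.8, 143, 55.7 and 58.3 FPKM in uap1-1 control. In uap1-2 cold it had 154, 110, 135 and 125 FPKM, against 87.7, 96.3, 74.1 and 59.7 FPKM in uap1-2 control. Its WT cold libraries had 154, 143, 163 and 101 FPKM, against 108, 159, 53.2 and 79.4 FPKM in WT control. The uap1-2 groups did not overlap, and in uap1-1 and WT the control libraries that reached the cold groups were uap1-1 control 2 and WT control 1 and 2. XTH4 rose in uap1-1 by a log2 fold change of 0.79 (SE 0.32, edgeR adjusted p = 0.0363), and its values of 0.72 in uap1-2 (SE 0.31, edgeR adjusted p = 0.0585) and 0.49 in WT (SE 0.31, edgeR adjusted p = 0.193) did not pass. With the 4 control libraries that stood apart left out, it was 1.30 in uap1-1, 0.67 in uap1-2 and 1.07 in WT, and each passed (edgeR adjusted p of 4.73e-05, 0.0124 and 0.00144). The same refit left XTH5 at −1.03, −0.85 and −0.91. The call of XTH4 in uap1-1 was lost in 6 of the 8 refits that left out 1 library each, with log2 fold changes of 0.60 to 0.81. A fit on only the groups compared did not call XTH4 in uap1-1 (0.79, edgeR adjusted p = 0.0741) and called it in uap1-2 (0.72, edgeR adjusted p = 0.00481).

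XTH17 and XTH21, both known for roles in roots, moved in opposite directions. XTH17 had 5.67, 5.86, 10.0 and 6.08 FPKM in uap1-1 cold, against 2.45, 4.40, 2.06 and 3.42 FPKM in uap1-1 control. Its uap1-2 cold libraries had 9.13, 4.93, 8.10 and 6.42 FPKM, against 3.45, 3.34, 3.45 and 1.44 FPKM in uap1-2 control. WT cold libraries held 6.83, 12.4, 8.13 and 4.97 FPKM of it, against 4.08, 8.45, 4.04 and 2.07 FPKM in WT control. The mutant groups did not overlap, and the WT groups overlapped through WT control 2. XTH17 rose by a log2 fold change of 1.16 in uap1-1 (SE 0.37, edgeR adjusted p = 0.0108) and 1.29 in uap1-2 (SE 0.37, edgeR adjusted p = 0.00563), and its value in WT was 0.79 (SE 0.36, edgeR adjusted p = 0.0705). The difference of its response from WT was 0.37 in uap1-1 (95% interval −0.70 to 1.44) and 0.50 in uap1-2 (−0.57 to 1.56), so that a rise limited to the mutants was not shown. Without the 4 control libraries that stood apart, XTH17 was at 1.37 in uap1-1, 1.35 in uap1-2 and 1.39 in WT, and each passed (edgeR adjusted p of 0.00316, 0.0036 and 0.00927). Leaving out WT control 2 alone gave 1.25 in WT (edgeR adjusted p = 0.00657), and leaving out uap1-1 cold 3, its highest library, gave 0.93 in uap1-1 (edgeR adjusted p = 0.0504). With scaling by library totals the value in uap1-1 was 0.77 and did not pass (edgeR adjusted p = 0.0604). Of the 31-base words of its transcript, 9.71% also occur elsewhere in the genome, in XTH18, XTH19 and XTH20, so part of its counts depends on how shared reads were treated.

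XTH21 was the least abundant of the 10 genes, with 1 to 22 counts in cold libraries and 13 to 126 counts in control libraries. It had 0.643, 0.104, 0.145 and 0.154 FPKM in uap1-1 cold, against 4.47, 2.11, 2.05 and 3.42 FPKM in uap1-1 control. uap1-2 cold libraries held 0.469, 0.131, 0.378 and 0.643 FPKM of it, against 1.75, 0.743, 1.77 and 0.693 FPKM in uap1-2 control. In WT cold it had 0.868, 0.0400, 0.164 and 0.408 FPKM, against 1.86, 1.77, 1.71 and 0.482 FPKM in WT control. Cold lay below control with no overlap in both mutants, and in WT the cold library 1 lay above control library 4. XTH21 fell by 3.56 on the log2 scale in uap1-1 (SE 0.67, edgeR adjusted p = 0.000107), by 1.59 in uap1-2 (SE 0.62, edgeR adjusted p = 0.0357) and by 1.96 in WT (SE 0.63, edgeR adjusted p = 0.0118). Without the 4 control libraries that stood apart it no longer passed in uap1-2 (−1.39, edgeR adjusted p = 0.0937) or in WT (−1.56, edgeR adjusted p = 0.0959), and it lost its call in uap1-2 in 5 of 8 refits that left out 1 library each. On library totals the root marker genes lay higher in uap1-2 cold than in uap1-2 control, as given above. Their part in the values of XTH17 and XTH21 was not tested. Of the 31-base words of XTH21, 13.2% also occur in a stretch with no annotated gene at chr2:5181490-5182050.

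XTH22, the touch-induced gene TCH4, whose expression is known to respond to touch, temperature and brassinosteroids, and XTH24, known as the meristem gene MERI5, passed in no genotype in the fit of all 6 groups. XTH22 had 36.8, 16.6, 23.9 and 20.7 FPKM in uap1-1 cold, against 15.3, 18.8, 11.1 and 14.5 FPKM in uap1-1 control. In uap1-2 cold it had 34.7, 10.3, 16.1 and 21.8 FPKM, against 11.9, 14.8, 30.9 and 10.2 FPKM in uap1-2 control. Its WT cold libraries had 25.1, 27.3, 24.0 and 27.3 FPKM, against 18.4, 22.6, 13.0 and 12.7 FPKM in WT control. The WT groups did not overlap, and the groups of both mutants did, with the libraries of uap1-2 spread over much the same range in cold and control. The log2 fold change of XTH22 was 0.71 in uap1-1 (SE 0.34, edgeR adjusted p = 0.074), 0.29 in uap1-2 (SE 0.33, edgeR adjusted p = 0.482) and 0.64 in WT (SE 0.33, edgeR adjusted p = 0.111). Without the 4 control libraries that stood apart it was 0.83, 0.73 and 1.01 in the same order of genotypes, and each passed (edgeR adjusted p of 0.0235, 0.0455 and 0.022). A fit on only the groups compared, with all their libraries, called XTH22 in uap1-1 (0.71, edgeR adjusted p = 0.0311) and in WT (0.66, edgeR adjusted p = 0.0182). The other touch genes of the list were TCH1, a calmodulin gene, which rose in uap1-1, uap1-2 and WT (0.68, 1.23 and 1.22), and the calmodulin-like genes TCH2 (−0.20, −0.06 and 0.19) and TCH3 (0.90, 0.30 and 0.12), which did not pass.

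XTH24 had 89.7, 48.1, 98.2 and 84.7 FPKM in uap1-1 cold, against 16.7, 95.7, 27.6 and 28.0 FPKM in uap1-1 control. Its uap1-2 cold libraries had 90.2, 50.6, 55.3 and 48.4 FPKM, against 34.6, 39.4, 59.2 and 16.8 FPKM in uap1-2 control. WT cold libraries held 55.4, 83.6, 51.2 and 43.3 FPKM of it, against 38.8, 98.3, 29.4 and 37.6 FPKM in WT control. In each genotype 1 control library, namely uap1-1 control 2, uap1-2 control 3 and WT control 2, reached the cold groups, and the other controls lay below every cold library of their genotype. The log2 fold change was 0.93 in uap1-1 (SE 0.46, edgeR adjusted p = 0.0853), 0.70 in uap1-2 (SE 0.45, edgeR adjusted p = 0.201) and 0.19 in WT (SE 0.45, edgeR adjusted p = 0.737). With the 4 control libraries that stood apart left out, XTH24 was at 1.72 in uap1-1 (edgeR adjusted p = 0.000154), 0.99 in uap1-2 (edgeR adjusted p = 0.012) and 0.79 in WT (edgeR adjusted p = 0.0731). The 4 libraries were picked by their TMM factor over all genes, and XTH24 is among the genes whose level follows that factor, as are XTH4, XTH17 and XTH22.

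**Figure D3:**
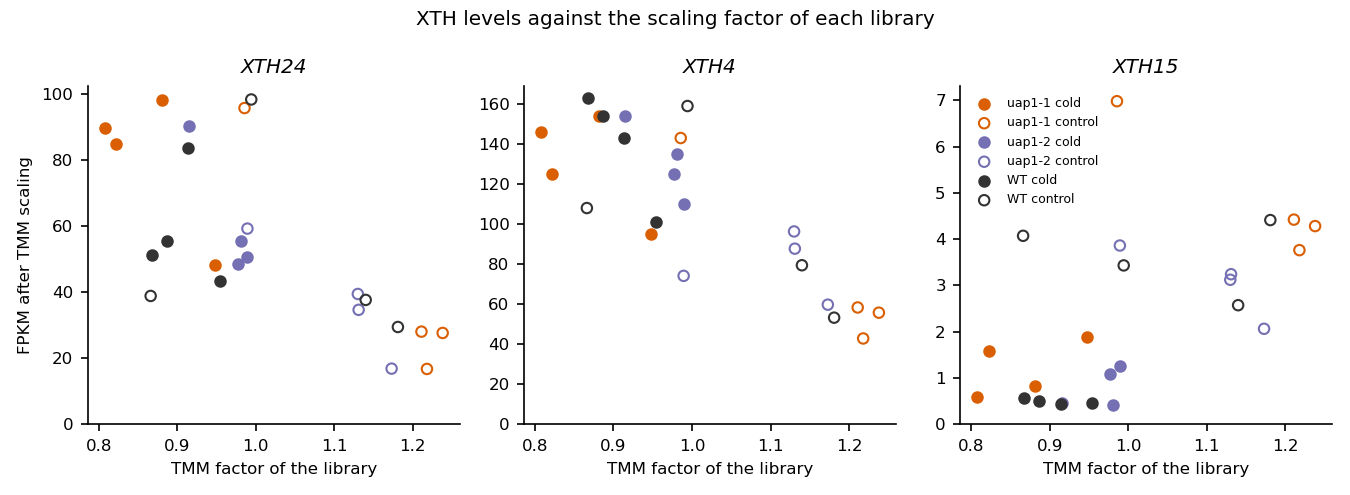
Level of XTH24, XTH4 and XTH15 in each of the 24 libraries (FPKM after TMM scaling, linear axis from 0) against the TMM factor of the library, with cold libraries filled and control libraries open. Control libraries with a factor under 1 hold XTH24 at 38.8 to 98.3 FPKM, against 16.7 to 39.4 FPKM in the 8 other controls, and the other 8 controls lie at higher factors than every cold library. XTH15 is lower in every cold library than in any control library.

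XTH8, and XTH9, known for expression in shoot apices, had fold changes below 0 that did not pass. XTH8 had 13.5 to 23.3 FPKM in the 12 cold libraries and 13.7 to 28.3 FPKM in the 12 control libraries, and its log2 fold changes were −0.18 in uap1-1, −0.10 in uap1-2 and −0.09 in WT, with 95% intervals within −0.61 to 0.34. XTH9 had 65.8 to 126 FPKM in cold libraries and 44.2 to 212 FPKM in control libraries, and its log2 fold changes were −0.16 in uap1-1, −0.59 in uap1-2 and −0.11 in WT. The interval of XTH9 in uap1-2, −1.25 to 0.08, includes a change of the size seen for XTH5. Without the control library uap1-2 control 3, the lowest for XTH9 in that group, XTH9 fell by 0.81 on the log2 scale in uap1-2 (edgeR adjusted p = 0.0351). Without the 4 control libraries that stood apart, XTH9 fell by 0.83 in uap1-2 (edgeR adjusted p = 0.0108), and its values were 0.10 in uap1-1 and 0.21 in WT. The only uap1-2 library among these 4 is the same uap1-2 control 3, so the falls in uap1-2 are not separate results. Leaving out the lowest control library also moves the value towards a fall. XTH8 was then at 0.02 in uap1-1, −0.16 in uap1-2 and 0.23 in WT, so that for both genes the sign in uap1-1 and WT turned, with no call in either genotype.

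The order of the 10 genes by mean level was the same in all 3 cold groups. It ran XTH4, XTH9, XTH24, XTH22, XTH8, XTH17, XTH16, XTH5, XTH15 and XTH21, with XTH4 at 130 FPKM in uap1-1 cold, 131 FPKM in uap1-2 cold and 140 FPKM in WT cold, and XTH21 at 0.262, 0.405 and 0.370 FPKM in the same groups. In this order the libraries of XTH4 and XTH9, XTH9 and XTH24, XTH17 and XTH16, and XTH15 and XTH21 overlapped in every cold group, and those of XTH22 and XTH8 overlapped in the mutants. Without cold, XTH9 led in uap1-1 control (121 FPKM, beside 74.9 FPKM for XTH4) and uap1-2 control (145 and 79.4 FPKM), and XTH4 led in WT control (99.9 FPKM, beside 92.8 FPKM for XTH9), with overlapping libraries each time. By mean level, XTH17 stood above XTH16 in the cold groups and below XTH16 and XTH5 in the control groups. Some of these means were close. In uap1-2 cold XTH17 and XTH16 had 7.15 and 7.01 FPKM. In WT control XTH17 and XTH5 had 4.66 and 4.8 FPKM, with overlapping libraries.

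The summed level of the 10 genes averaged 377 ± 73.2 FPKM in uap1-1 cold and 302 ± 142 FPKM in uap1-1 control, 345 ± 57.8 FPKM in uap1-2 cold and 325 ± 70.5 FPKM in uap1-2 control, and 346 ± 52.6 FPKM in WT cold and 307 ± 104 FPKM in WT control (SD, n = 4 each). Their libraries overlapped in each genotype, and no test was run on the sums. The 10 genes gave 41.7% to 59.1% of the level of all 33 XTH genes. Within the sum, XTH15 held 0.358% ± 0.244 in uap1-1 cold and 1.69% ± 0.238 in uap1-1 control, and 0.143% ± 0.0194 in WT cold and 1.34% ± 0.762 in WT control (SD, n = 4 each).

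Between genotypes no XTH gene of the 10 passed the test. Over the 10 genes, the comparisons of uap1-1 and uap1-2 with WT and with each other, in control and in cold, and the comparisons of the cold response of each mutant with that of WT gave 80 values. Of these values, 0 passed by edgeR, DESeq2 or limma, and 2 had an unadjusted edgeR p under 0.05. Few genes of the genome passed either. In uap1-1 against WT in control 1 gene did (0.00467% of the genes tested, with 1961 at an unadjusted p under 0.05, 30 called by DESeq2 and 37 by limma), and in uap1-2 against uap1-1 in control 2 genes did (0.00933%, with 1354 at an unadjusted p under 0.05, 22 called by DESeq2 and 39 by limma). In the other 6 comparisons edgeR called 0.0% of the genes tested, with 371 to 2368 genes at an unadjusted p under 0.05, 0 to 12 called by DESeq2 and 0 by limma.

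The larger of the 2 values with an unadjusted p under 0.05 was that of XTH15 in the cold. It had 0.584 to 1.89 FPKM in uap1-1 cold, against 0.436 to 0.570 FPKM in WT cold, with a log2 difference of 1.32 (SE 0.39, edgeR adjusted p = 0.994). These libraries held 11 to 55 and 10 to 14 counts of XTH15, so that depth limits this difference. The groups did not overlap, with all 4 uap1-1 libraries above all 4 WT libraries. The other 9 XTH genes overlapped in this comparison, and the share of all genes without overlap was not computed. In uap1-2 cold XTH15 had 0.412 to 1.26 FPKM, and its log2 difference from WT cold was 0.69 (SE 0.40, edgeR adjusted p = 0.928). The cold response of XTH15 was 0.89 higher on the log2 scale in uap1-1 than in WT (95% interval −0.16 to 1.95, edgeR adjusted p = 0.627) and 0.93 higher in uap1-2 than in WT (−0.14 to 2.01, edgeR adjusted p = 1). XTH21 was the other gene, at 0.693 to 1.77 FPKM in uap1-2 control against 2.05 to 4.47 FPKM in uap1-1 control, with a log2 difference of −1.28 (SE 0.56, edgeR adjusted p = 0.773). It also lay higher in each uap1-1 control library than in any WT control library, where it had 0.482 to 1.86 FPKM, with a log2 difference of 1.05 (SE 0.56, edgeR adjusted p = 0.602). In each of these control comparisons the other 9 XTH genes overlapped, and the share of all genes without overlap was not computed. On library totals, the root marker genes summed to 50.9 to 64.2 CPM in uap1-1 control, against 38.9 to 47.1 CPM in uap1-2 control. These groups did not overlap. In WT control the root marker genes summed to 36.9 to 81.1 CPM, and their part in the XTH21 values was not tested. For XTH5 and XTH16, the cold response in uap1-1 differed from that in WT by 0.12 (95% interval −0.47 to 0.71) and 0.08 (−0.84 to 1.01) on the log2 scale.

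Within groups, several of the genes varied together. With group means subtracted from log2 CPM, XTH4 had r = 0.85 with XTH24, 0.83 with XTH8 and 0.66 with XTH17 over the 24 libraries, and XTH24 had r = 0.74 with XTH17 and 0.63 with XTH22. XTH9 and XTH16 had r = 0.81 with each other. They also followed XTH4 (r = 0.62 for XTH9 and 0.55 for XTH16) and XTH8 (0.52 for each), at least as closely as XTH22 followed XTH4 (0.46), but not XTH24 (0.23 and 0.28), XTH17 (0.11 and −0.01) or XTH22 (−0.12 and −0.14). XTH5 had negative r with most of the others, down to −0.40 with XTH24. Several also followed the TMM factor of the library. Within groups r was −0.74 for XTH4, −0.68 for XTH8 and XTH24, −0.64 for XTH22, −0.46 for XTH17, −0.38 for XTH9 and −0.32 for XTH16. It was −0.26 for XTH21, −0.16 for XTH15 and 0.08 for XTH5, against a median of −0.05 over all genes tested. The libraries share their scaling, which enters both measures, and the part of the scaling in these r was not tested.

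**Figure D4:**
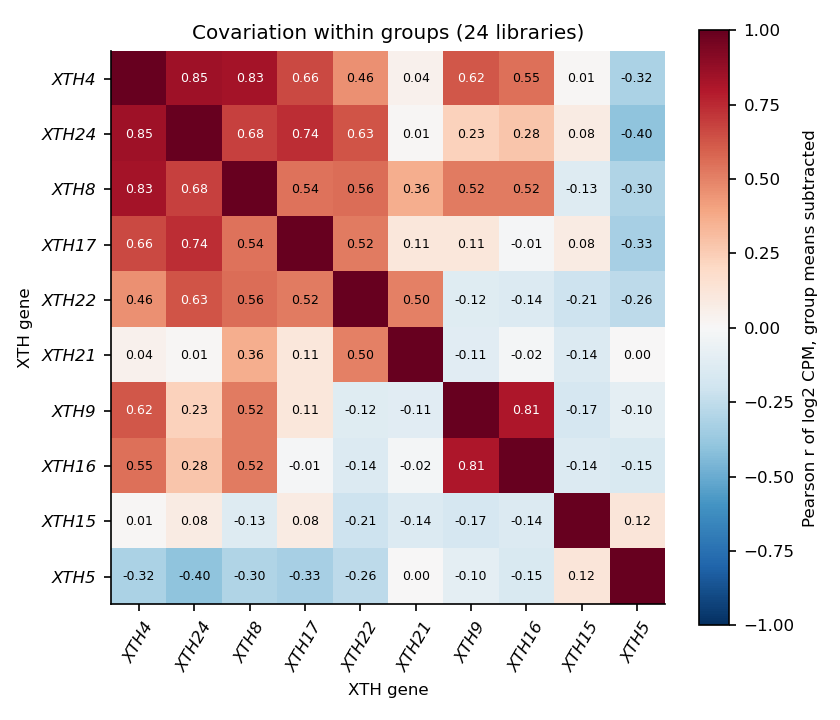
Pearson r between each pair of XTH genes over 24 libraries, computed on log2 CPM with group means subtracted (red, positive; blue, negative). XTH4, XTH24, XTH8, XTH17 and XTH22 form a block of positive values, XTH9 and XTH16 reach 0.81 with each other and 0.52 to 0.62 with XTH4 and XTH8, and XTH5 has negative values down to −0.40.

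Over the 24 libraries with group means kept, the gene most like XTH22 was ERF6, an ethylene response factor gene, with r = 0.958, and it also led within groups with r = 0.946. XTH15 was most like PNSB1 (r = 0.939) and LHCA6 (r = 0.937), genes of chloroplast electron transport complexes, and TPK5, a potassium channel gene (r = 0.937). XTH4 was most like CAD9 (r = 0.934), the beta-tubulin gene TUBB4 (r = 0.923) and the proteasome gene PAB1 (r = 0.91). Among the closest within groups, XTH4 had another family member, XTH7 (r = 0.919), next to AT5G03120 (r = 0.922). XTH24 was most like ATMDAR1 (r = 0.906) with group means kept and the lipid transfer protein gene LTP5 (r = 0.929) within groups. XTH9 was most like AT5G19750 (r = 0.911) and, within groups, AT5G16250 (r = 0.953) and LSH3 (r = 0.923). XTH16 was most like AT3G53750, an actin gene (r = 0.926), and within groups LTL1 (r = 0.878). For XTH17 the closest was MSBP2 (r = 0.906), for XTH21 the pectin methylesterase inhibitor gene PMEI4 (r = 0.917), for XTH8 the sterol methyltransferase gene SMT1 (r = 0.859) and for XTH5 AT5G18140 (r = 0.919). These values rank all genes tested by likeness and hold no test.

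The other XTH genes also moved in both directions. Of 23 other XTH genes, 20 passed the filter, and 7 rose and 4 fell in uap1-1, 6 rose and 3 fell in uap1-2, and 5 rose and 3 fell in WT. Their median log2 fold change was 0.32 in uap1-1, 0.60 in uap1-2 and 0.39 in WT. XTH20, a root gene, had 14.2 ± 3.77 FPKM in uap1-1 cold and 2.41 ± 0.708 FPKM in uap1-1 control, 13.2 ± 7.11 FPKM in uap1-2 cold and 0.918 ± 0.220 FPKM in uap1-2 control, and 17.4 ± 3.45 FPKM in WT cold and 1.35 ± 0.837 FPKM in WT control (SD, n = 4 each). It rose by a log2 fold change of 2.55 in uap1-1, 3.84 in uap1-2 and 3.67 in WT. XTH23, the closest relative of XTH22 with 80.9% of coding bases identical, rose by 2.31, 2.13 and 2.20 on the log2 scale in the same genotypes. XTH31, of the clade with hydrolase activity, fell in all 3 genotypes (log2 fold changes of −1.61, −1.47 and −1.29), as did XTH7 (−1.43, −1.78 and −1.92).

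XTH22 and XTH24 stand in tandem clusters with other XTH genes. XTH24 lies beside XTH18 and XTH19 on chromosome 4. XTH18, which shares 92.2% of its coding bases with XTH17, rose by a log2 fold change of 1.51 in uap1-1, 3.04 in uap1-2 and 2.12 in WT. XTH19 rose in uap1-2 (2.09), and its values in uap1-1 (0.40) and WT (0.85) did not pass. XTH22 lies beside XTH25, XTH13 and XTH12 on chromosome 5. XTH25, at 0 to 4 counts in cold libraries and 7 to 45 counts in control libraries, fell by 3.48 on the log2 scale in uap1-1, by 3.71 in uap1-2 and by 3.99 in WT. XTH13 fell in uap1-1 by 2.33 on the log2 scale, with 3 to 4 counts in uap1-1 cold and 16 to 28 counts in uap1-1 control, and its values of −0.29 in uap1-2 and −0.17 in WT did not pass. XTH12 had log2 fold changes of −0.04 in uap1-1, 1.09 in uap1-2 and 0.68 in WT, none of which passed.

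**Figure D5:**
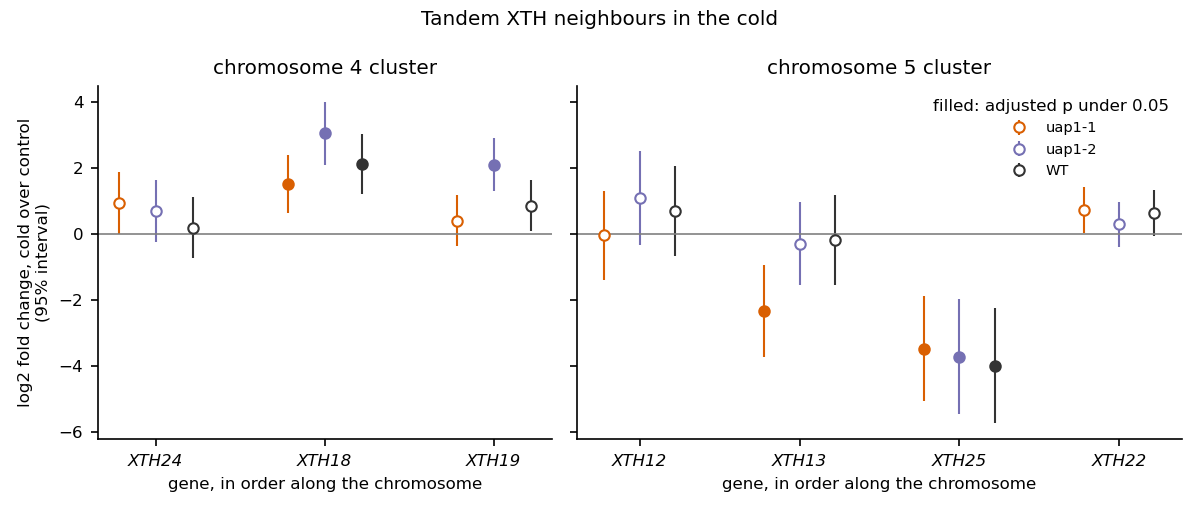
Log2 fold change of cold over control with its 95% interval for XTH genes in the clusters on chromosomes 4 and 5, in uap1-1, uap1-2 and WT; filled points passed an adjusted p of 0.05. XTH18 lies at 1.51 to 3.04 beside XTH24 at 0.19 to 0.93, and XTH25 lies at −3.99 to −3.48 beside XTH22 at 0.29 to 0.71.

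Genes that make and trim xyloglucan changed in both directions. Of 13 synthesis genes, 3 rose and 5 fell in uap1-1, 3 rose and 6 fell in uap1-2, and 3 rose and 7 fell in WT, with median log2 fold changes of −0.38, −0.65 and −0.70. CSLC4, which makes the glucan backbone, fell by 1.96 on the log2 scale in uap1-1, by 2.02 in uap1-2 and by 2.17 in WT. CSLC8, of the same gene family (−1.34, −1.09 and −1.24), and the xylosyltransferase gene XXT4 (−1.20, −0.94 and −1.10) fell too. The galactosyltransferase genes MUR3 (1.06, 1.21 and 1.07) and XLT2 (1.71, 0.90 and 0.87) rose in the same genotypes, as did CSLC5 (0.79, 0.81 and 0.63). Of 3 side chain trimming genes, the xylosidase gene XYL1 (−0.94, −1.02 and −1.28) and the fucosidase gene AXY8 (−0.87, −0.91 and −0.93) fell in the same genotypes, whereas the galactosidase gene BGAL10 (0.39, 0.51 and 0.39) rose.

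Of 11 cellulose synthesis genes, 6 rose and 0 fell in uap1-1, 4 rose and 1 fell in uap1-2, and 2 rose and 1 fell in WT, with median log2 fold changes of 0.39, 0.24 and 0.14. CESA5, a primary wall subunit, rose by 1.57 in uap1-1, 1.46 in uap1-2 and 1.54 in WT. CESA8, a secondary wall subunit, had 0.63, 1.07 and 0.70 and passed in uap1-2 and WT. CESA2 had −0.20, −0.27 and −0.45 and passed in uap1-2 and WT. Of 10 brassinosteroid genes, 3 rose and 6 fell in uap1-1, 1 rose and 6 fell in uap1-2, and 1 rose and 6 fell in WT. The synthesis genes DET2 (log2 fold changes of −1.54, −1.95 and −1.98) and CPD (−1.41, −1.96 and −2.07) and the transcription factor gene BES1 (−0.83, −1.20 and −1.37) fell in uap1-1, uap1-2 and WT. BR6OX2, which acts at the end of brassinosteroid synthesis, rose by 0.60, 1.24 and 0.86 on the log2 scale. The counts for these lists are read beside the same background shares of all genes as above, and no list was tested as a set.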

How the data were processed

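The submitters deposited, for 24 libraries of poly(A) RNA, raw read counts per gene and FPKM values, which equal count over exonic length and library total to within 0.005 in the deposited table. The exonic length per gene is the authors' too. Per the submitters' processing notes, which give no role or order, the tools were DESeq2 1.26.0, HTSeq 0.6.1, SAMtools 0.1.19, StringTie 1.3.3b, HISAT2 2.2.1, cutadapt 1.9.1, FastQC 0.10.1 and bcl2fastq 2.20.0.422, with the TAIR10 build. No source used here gives the strand setting.

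The counts were tested with edgeR 4.0.16 (R 4.3.3): TMM scaling, a filter on low counts (minimum 10, minimum total 15), a quasi-likelihood fit of 6 group means over 24 libraries, and Benjamini-Hochberg adjustment over the 21428 genes kept. Intervals are 95%. The steps were tested on simulated data. Alternatives were DESeq2 1.42.0, limma 3.58.1 on log2(FPKM + 1) and log2(FPKM + 0.1), other scalings, no filter, only the groups compared, a replicate block, and leaving out each library. Precision of rare transcripts is limited by library totals of 19289385 to 25501547 counts.

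The replicate numbers pair the libraries by their correlation only for uap1-2 cold against uap1-1 cold, where all 4 same-number pairs had r of 0.233 to 0.536, and the block changed no call there. Sequences are from RefSeq TAIR10.1, on which 99.95% of 32547 loci have the deposited positions. Identity was computed on coding bases by global alignment (Biopython 1.88).

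The genes, lists and motifs were chosen with earlier results of these data known. All 10 XTH genes are named. From each other list up to 3 genes per direction are named, those with the smallest adjusted p in cold WT among genes past the threshold, together with tandem neighbours and genes most like each member. A promoter window and a gene that the rules would include are not reported here. TCH2, TCH3 and AT4G14120 were added after their values were seen.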

Additional observations from a re-analysis of the deposited data

Results flagged for a closer look

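In 8 of the 60 sets of 4 libraries (10 genes in 6 groups) the highest or lowest library lay far from the other 3, by a gap above Dixon's 95% critical value for 4 values. For independent sets of normally distributed values, chance alone flags about 1 in 20. The values here are linear FPKM of genes that vary together over the same libraries, so 8 of 60 is not read as an excess. XTH24 was flagged in uap1-2 cold (replicate 1, 90.2 FPKM), uap1-1 control (replicate 2, 95.7 FPKM) and WT control (replicate 2, 98.3 FPKM), each time as the highest library. XTH4 was highest in uap1-1 control replicate 2, at 143 FPKM, the same library as for XTH24. XTH17 was highest in uap1-1 cold replicate 3, at 10.0 FPKM, and lowest in uap1-2 control replicate 4, at 1.44 FPKM. XTH21 was highest in uap1-1 cold replicate 1, at 0.643 FPKM, and lowest in WT control replicate 4, at 0.482 FPKM. Of the 20 differences in cold response between a mutant and WT, 0 had an adjusted or an unadjusted p under 0.05.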

How the results depend on the processing

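The falls of XTH5, XTH15 and XTH16 passed in every genotype under every alternative run. Leaving out 1 library at a time gave 4 to 7 genes called of the 10 in uap1-1, 4 to 5 in uap1-2 and 4 to 6 in WT, and 0 in each other comparison. In the main fit, 11971, 11245 and 11619 of all 21428 genes tested were called in uap1-1, uap1-2 and WT. The counts of the 10 genes in this section are therefore not read as a result about the family. Without the 4 control libraries with a TMM factor under 1, the count in uap1-2 was 8 instead of 5; it was 8 instead of 6 in uap1-1 and 6 instead of 4 in WT, and the cause was not tested. With the replicate number as a block, 7 genes were called in uap1-1, 6 in uap1-2 and 5 in WT, where XTH24 in uap1-1 (1.18), XTH4 in uap1-2 (0.76) and XTH17 in WT (0.83) were gained; apart from uap1-2 cold against uap1-1 cold the numbers did not pair the libraries. Scaling by library totals moved the median of all genes to −0.50, −0.20 and −0.27 in uap1-1, uap1-2 and WT, the share of calls that were higher from 47.8%, 50.5% and 47.6% to 25.8%, 37.5% and 35.4%, and in uap1-1 XTH17 (0.77) and XTH4 (0.42) no longer passed while XTH8 (−0.59) did, and XTH9 (−0.80) passed in uap1-2. limma on FPKM changed the same 3 calls in uap1-1. Fits on only the groups compared gained XTH22 in uap1-1 (0.71) and WT (0.66) and XTH4 in uap1-2 (0.72), and lost XTH4 in uap1-1 (0.79). No called value changed sign. XTH21 was filtered out with only the groups compared in 2 cold comparisons between genotypes and has no value there. At 1 to 22 counts in cold libraries, depth limits the values of XTH21, and those of XTH15 rest on 10 to 55 counts there.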
